A study of Mus musculus with 24 samples.

Results

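NN-Endo-SMC-Peri is the name the authors gave to the blood vessel cells in their single-nucleus survey of the mouse amygdala, and it joins endothelial cells with smooth muscle cells and pericytes. Its members were taken by that name from the tables of summed counts and of nuclei per cell type. It held 168 of 21648 RNA nuclei and 7 of 19119 ATAC nuclei. The RNA tables divide all nuclei among 22 cell types. The mice were males of strain BL6 or strain DBA, aged 10 to 16 weeks, with no treatment or engineered allele named in the labels. Each library pooled tissue from about 2 animals, and each strain had 2 RNA libraries and 2 ATAC libraries, numbered 2 and 3 in the tables. RNA nuclei were sorted to 75% positive and 25% negative for NeuN, a neuronal nuclear antigen, so the sort sets how many vessel nuclei could enter. ATAC nuclei were sorted on a DNA dye without NeuN. Few ATAC nuclei were of any non-neuronal type, as counted below.

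Brain endothelial cells line the vessels and form the blood-brain barrier through tight junctions, selective transporters and low transcytosis. Pericytes sit on capillaries within the basement membrane, and smooth muscle cells wrap arteries and arterioles, where they set vessel tone. Pericytes and smooth muscle cells together are called mural cells. Platelet-derived growth factor from the endothelium recruits pericytes through their receptor Pdgfrb.

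The 3 genes given as markers of these cells are Cldn5, Flt1 and Rgs5. Their RefSeq promoters (build GRCm38.p6, from 250 bases before to 50 bases after the gene start) are shown because a deposited ATAC peak lies over each one, and the ATAC counts at those peaks are described at the end. The choice of these 3 promoters was made after their values were seen. Capitals mark matches to the motifs searched on both strands, which were those of 5 kinds spelled here and the CArG box. The motif of the endothelial ETS factors was searched as ACAGGAA. The motif of the SOX factors was searched as ACAATG. The GC box, bound by SP factors, was searched as GGGCGG. The core promoter element called the TATA box was searched as TATAAA. The motif of RBPJ, the effector of Notch signalling, was searched as GTGGGAA. All sequences are written 5′ to 3′ on the strand of the gene.
Cldn5, chr16:18776597-18776896, plus strand: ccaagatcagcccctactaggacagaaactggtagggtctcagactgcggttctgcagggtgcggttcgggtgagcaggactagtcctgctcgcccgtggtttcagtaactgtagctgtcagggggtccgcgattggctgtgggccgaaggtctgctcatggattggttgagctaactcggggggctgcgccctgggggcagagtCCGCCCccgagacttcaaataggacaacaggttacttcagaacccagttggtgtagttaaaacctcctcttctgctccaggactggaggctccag
Flt1, chr5:147725962-147726261, minus strand: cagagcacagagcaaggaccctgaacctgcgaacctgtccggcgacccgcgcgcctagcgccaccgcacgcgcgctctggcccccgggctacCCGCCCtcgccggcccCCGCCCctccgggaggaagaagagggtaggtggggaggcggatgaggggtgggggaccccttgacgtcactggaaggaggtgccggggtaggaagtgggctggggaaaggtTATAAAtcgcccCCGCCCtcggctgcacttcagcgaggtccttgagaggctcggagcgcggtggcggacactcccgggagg
Rgs5, chr1:169655251-169655550, plus strand: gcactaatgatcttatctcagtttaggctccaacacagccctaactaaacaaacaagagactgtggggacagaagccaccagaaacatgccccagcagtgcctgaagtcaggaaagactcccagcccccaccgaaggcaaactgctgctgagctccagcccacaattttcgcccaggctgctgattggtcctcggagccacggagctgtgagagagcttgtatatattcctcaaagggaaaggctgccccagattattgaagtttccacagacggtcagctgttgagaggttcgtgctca
The Cldn5 promoter held 1 GC box, and the Flt1 promoter held 3 GC boxes and 1 TATA box. None of the 6 motifs was present in the Rgs5 window. Among all 32851 RefSeq mouse promoters of the same length, 35.7% held a GC box, 13.6% a TATA box, 12.6% the SOX motif, 8.67% the ETS motif, 6.38% the RBPJ motif and 1.63% a CArG box.

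The RNA columns of the type held 244020 counts from 84 nuclei in BL6 library 2, 160751 counts from 61 nuclei in BL6 library 3, 35068 counts from 14 nuclei in DBA library 2 and 27642 counts from 9 nuclei in DBA library 3. Levels below are counts per 1000000 counts of the column (CPM), from 3′ counts of unique molecules, and are compared between cell types and libraries, not between genes. A count of 0 allows up to 3 counts, which is 12.3, 18.7, 85.5 and 109 CPM in the 4 columns in that order. A 0 in a DBA column therefore says little about a gene of moderate level. Intervals and floors cover counting error only.

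One library stood apart from the other 3. BL6 library 2 held RNA of choroid plexus epithelium, the secretory epithelium of the brain ventricles, in the columns of this vascular type. Ttr, the thyroid hormone carrier transthyretin and a main product of that epithelium, had 1662 counts in BL6 library 2 and 2, 0 and 0 in the other 3. Otx2, a transcription factor of the epithelium, had 28 counts there and 0 elsewhere. Tmem72 had 52 counts, Kl, which encodes Klotho, had 31, and Folr1, a folate receptor, had 24, all with 0 counts in the other 3 columns. Over a list of 22 choroid plexus genes, chosen after the values were seen, the summed level was 22248 CPM in BL6 library 2 against 1530, 371 and 253 CPM in BL6 library 3, DBA library 2 and DBA library 3. The other nuclei of BL6 library 2 also held more Ttr, at 156 CPM against 1.74, 0.374 and 0.494 CPM in the other nuclei of the other 3 libraries. In BL6, Neuronal-Aldoa-Cst3 reached 684 CPM and the microglia type NN-MGC 302 CPM, so Ttr RNA in that library was not limited to the vascular type. Every member of the list had counts in BL6 library 2, while 12, 15 and 19 members were at 0 in the other columns. Not all members are private to that epithelium, since Trpm3 reached 19141 CPM in NN-VLMC and Wdr17 reached 9325 CPM in NN-Astro. Over the whole list NN-VLMC summed to 20196 CPM and NN-Astro to 12293 CPM in BL6. Of 2200 genes with 40 or more counts in BL6, 17 were at least 8-fold higher in BL6 library 2 than in BL6 library 3, with 10 CPM added to both, and 0 were as much higher in BL6 library 3. Among the 30 members of the vascular lists with 40 or more counts, 0 differed by 4-fold or more between those libraries.

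**Figure D1:**
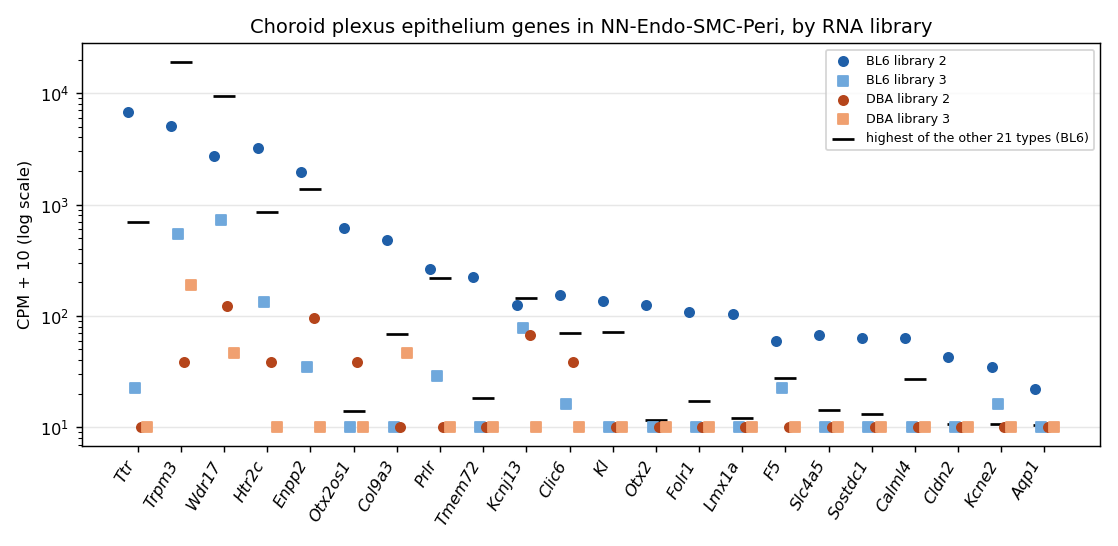
Levels of 22 choroid plexus epithelium genes in the NN-Endo-SMC-Peri column of each RNA library, as CPM + 10 on a log scale. Dots and squares are single libraries, and black dashes are the highest of the other 21 cell types in BL6. BL6 library 2 is the highest of the 4 columns for all 22 genes.

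The vascular identity of the RNA columns was clear for endothelial cells and pericytes and weaker for smooth muscle. These values are a description with no test, because the authors clustered nuclei on the same RNA. In BL6, 27 of 31 endothelial genes, 9 of 12 pericyte genes and 8 of 18 smooth muscle genes were higher in this type than in any of the other 21. That is 44 of 61 genes, or 72.1%, against 14.4% of the 16806 genes with any count in the BL6 columns. The number was also 44 without BL6 library 2 and 44 without BL6 library 3. In DBA, 26 endothelial, 9 pericyte and 10 smooth muscle genes were highest in this type.

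Flt1, a receptor for vascular endothelial growth factor, had 1488 and 1605 CPM in BL6 libraries 2 and 3 and 2795 and 760 CPM in DBA libraries 2 and 3. The next type, NN-VLMC (vascular leptomeningeal cells by the authors' name), had 178 CPM. Cldn5, the main claudin of endothelial tight junctions, had 533, 460, 713 and 217 CPM in the same order, against 21.98 CPM in NN-VLMC. All 4 libraries were far above every other type for both genes. Slco1a4, an organic anion transporter of the barrier, had 1061, 958, 1568 and 760 CPM. Mecom, a transcription factor, had 529, 790, 428 and 326 CPM. The strains overlapped for Flt1, Cldn5 and Slco1a4, while Mecom was lower in both DBA libraries. The 4 endothelial genes that were not highest here were Cdh5, Abcb1a and Abcg2, which were highest in NN-Endo-VLMC, and Slco1c1, which was highest in NN-Astro. For Cdh5, the junction protein VE-cadherin, the BL6 mean was 83.5 ± 13.8 CPM (SD, n = 2) against 125 CPM in NN-Endo-VLMC.

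Rgs5, a regulator of G protein signalling and a pericyte marker, had 488 and 435 CPM in BL6 and 1511 and 579 CPM in DBA, against 13.2 CPM in NN-VLMC. Atp13a5, a P-type ATPase, had 1598, 1841, 2338 and 1773 CPM, against 80.2 CPM in NN-Astro. Vtn, the secreted protein vitronectin, had 1389, 1754, 1340 and 651 CPM, against 571 CPM in NN-VLMC. Pdgfrb had 635, 740, 969.5 and 615 CPM, against 178 CPM in NN-VLMC. These 4 pericyte genes were thus present in each of the 4 columns, the smallest of 9 nuclei included. Cspg4, Anpep and Cd248 were higher in NN-OPC, NN-Endo-VLMC and NN-VLMC respectively.

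Of the 3 vascular lists, that of smooth muscle varied most between libraries. Myh11, smooth muscle myosin heavy chain, had 73.8 and 68.4 CPM in BL6, 627 CPM in DBA library 2 and 0 in DBA library 3. Acta2, smooth muscle actin, had 20.5, 56.0, 428 and 0 CPM. Myl9, a regulatory myosin light chain, had 86.1, 106, 314 and 0 CPM, and Mylk, the kinase of that chain, had 135, 168, 399 and 72.4 CPM. DBA library 2 was the highest for all 4 genes, and DBA library 3 had the lowest values. A 0 in DBA library 3 allows up to 109 CPM, above the BL6 levels of Myh11, Acta2 and Myl9. The value of Mylk there was also below 109 CPM. Single genes therefore do not show DBA library 3 to be below BL6. The summed list stood at 545, 591, 2566 and 181 CPM, and NN-VLMC reached 510 CPM in BL6, so the list by itself did not set this type apart from NN-VLMC.

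**Figure D2:**
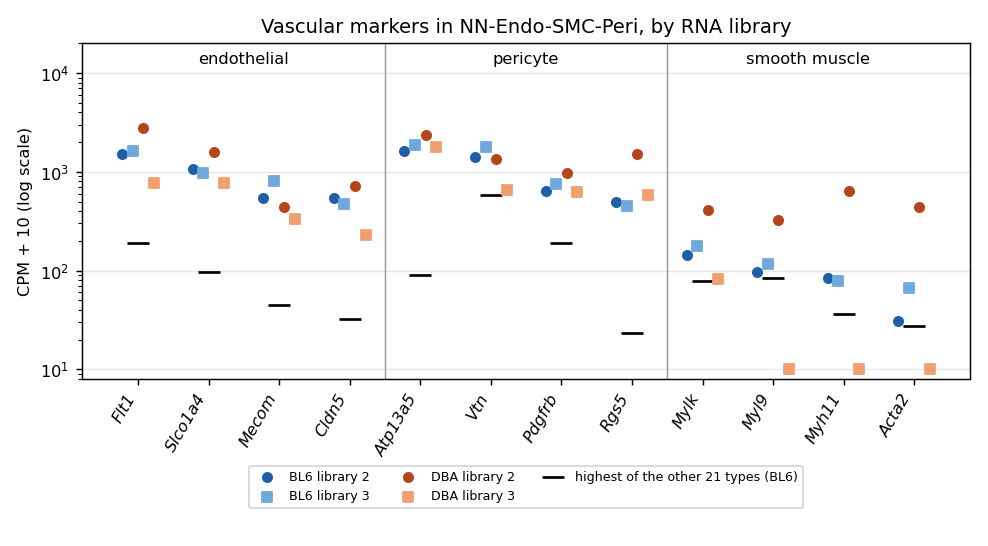
The 4 members of the endothelial, pericyte and smooth muscle lists with the highest BL6 level, as CPM + 10 on a log scale, in the NN-Endo-SMC-Peri column of each RNA library. Black dashes are the highest of the other 21 cell types in BL6. Endothelial and pericyte genes lie above the dashes in all 4 libraries, while Myl9, Myh11 and Acta2 are at 0 in DBA library 3.

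**Figure D3:**
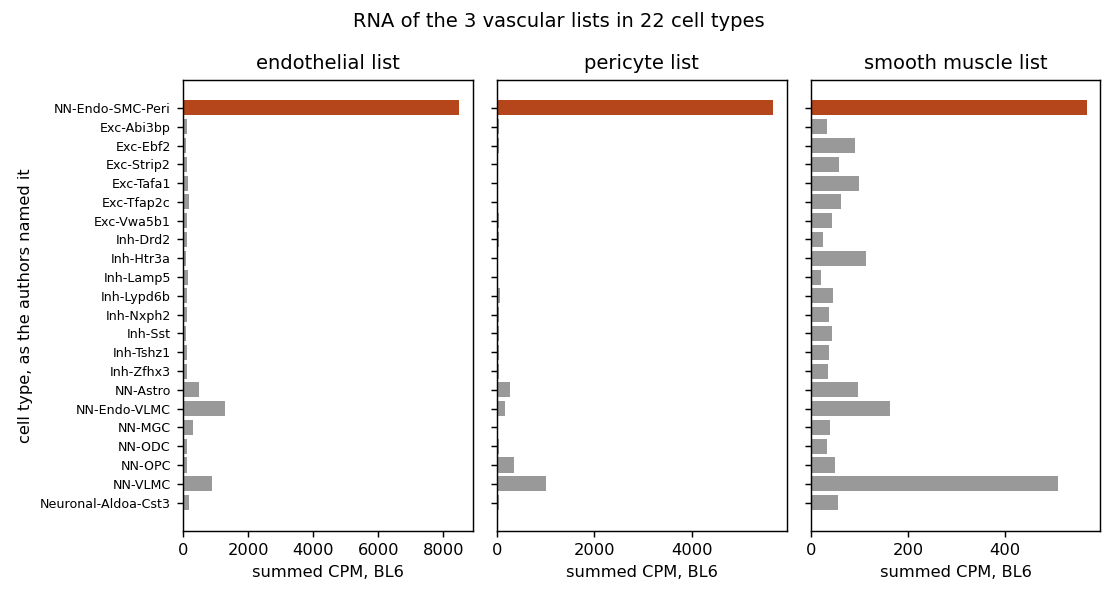
Summed BL6 level of the 3 vascular lists in each of 22 cell types, in CPM. The endothelial and pericyte sums of NN-Endo-SMC-Peri (8491 and 5670 CPM) are 6.61 and 5.58 times those of the next type, and the smooth muscle sum (568 CPM) is 1.11 times that of NN-VLMC.

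The mix of endothelial and mural RNA was measured as the share of pericyte and smooth muscle counts among the counts of all 3 lists. It was 42.0% of 3348 counts in BL6 library 2 (exact 95% interval 40.3 to 43.7) and 42.7% of 2530 counts in BL6 library 3 (40.8 to 44.6). It was 45.5% of 787 counts in DBA library 2 (42.0 to 49.0) and 53.2% of 250 counts in DBA library 3 (46.8 to 59.5). DBA library 3 had fewer than 10 nuclei and is given as a value only. DBA library 2 lay 3.16 percentage points above the BL6 mean of 42.3% ± 0.511 (SD, n = 2), with an exact two-sided permutation p = 0.333, the smallest that 3 libraries allow. Within the mural counts, smooth muscle genes made up 9.47% and 8.80% in BL6, 25.1% in DBA library 2 and 3.76% in DBA library 3. The intervals of the DBA libraries (20.7 to 29.97 and 1.23 to 8.56) did not overlap. Counts of 1 nucleus are not independent, and the summed tables do not show how many of the 14 and 9 nuclei carried them. Fewer cells of a type and less RNA per cell cannot be told apart here.

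**Figure D4:**
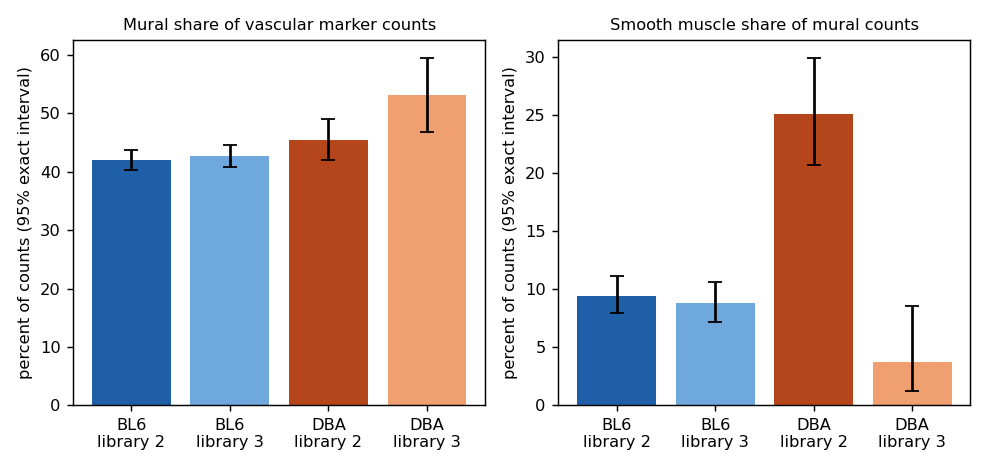
Left, pericyte and smooth muscle counts as a percent of all counts of the 3 vascular lists in each RNA library. Right, smooth muscle counts as a percent of the pericyte and smooth muscle counts. Bars are single libraries with exact 95% binomial intervals, and DBA library 2 (25.1%) stands above the other 3 in the right panel.

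In BL6, 90 of the 4679 genes with 20 or more counts in this type were at least 4 times higher than in any other type, with 1 CPM added to both levels. BL6 library 2 alone carried some of them. 9 of the 90 had no count in BL6 library 3, 6 are in the choroid plexus list, and the number was 48 when BL6 library 2 was left out. Both BL6 libraries were above every other type for 78 of the 90. In DBA, which did not choose these genes, 72 and 68 of them were above every other DBA type in libraries 2 and 3. There 15 and 20 were at 0. The DBA nuclei were also named from their RNA, so this is a description and not an independent check. The share over all genes was not taken for DBA.

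The largest ratio was that of Slc38a11, of the amino acid transporter family SLC38, with 430, 560, 1027 and 579 CPM. Its next type, Exc-Vwa5b1, had 2.35 CPM. Adgrl4, an adhesion receptor of endothelial cells, followed with 336, 311, 542 and 72.4 CPM, against 2.20 CPM in NN-VLMC. Otx2os1 came next with 611 CPM in BL6 library 2, 0 in BL6 library 3, and 28.5 and 0 in DBA, and so followed the choroid plexus genes. It is transcribed opposite to Otx2, and whether the counting used strand is not given in the sources used here. Tbx3os1, a transcript opposite to Tbx3, had 406, 473, 827 and 470 CPM. Sox17, a transcription factor of arterial endothelium, had 57.4, 68.4, 57.0 and 72.4 CPM, and its next type had 0.104 CPM. The DBA levels of Sox17 were 2 counts in each column.

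Kcnj8 and Abcc9 encode the pore and the sulfonylurea receptor of the ATP-sensitive potassium channel of mural cells. Kcnj8 had 86.1, 106, 85.5 and 109 CPM, and Abcc9 had 193, 255, 285 and 181 CPM. Their ratios to the next type were 53.3 and 29.6, and no library was at 0. Kcnj8 had only 3 counts in each DBA column, so its DBA levels are imprecise. The other genes among the 15 with the largest ratios were Ly6c1, Zfp366, Cysltr2, Rgs5, Cyyr1, Clic5, Higd1b and Ggt1, with ratios from 27.5 (Ggt1) to 35.0 (Ly6c1). Cysltr2, a receptor for cysteinyl leukotrienes, had 65.6, 106, 171 and 145 CPM.

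Genes of vessel subtypes and pathways were then compared by list. Each number of members highest in this type is to be read beside the 14.4% over all genes with any count in the BL6 columns. Of 26 barrier transporters, 13 were highest in this type and 10 second highest. Slc2a1, the glucose transporter GLUT1, had 250, 317, 456 and 72.4 CPM, against 40.3 CPM in NN-ODC. Slc6a6, the taurine transporter, had 365, 355, 570 and 434 CPM. Of 13 tight junction genes, 4 were highest here, which were Cldn5, Tjp1, Esam and Ocln. Ocln, which encodes occludin, had 102, 112, 57.0 and 0 CPM. Of 8 genes for caveolae and transcytosis, 1 was highest here, near the share over all genes, and 5 were second.

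Of 6 genes of capillary endothelium, 3 were highest in this type. Spock2 had 467, 324, 570 and 326 CPM, and Car4, a membrane carbonic anhydrase, had 197, 174, 85.5 and 109 CPM. Of 12 arterial genes, 6 were highest here, though Bmx and Gja4 had no more than 9 counts in any column. Of 9 venous genes, 2 were highest here, not far from the share over all genes. Vwf, which encodes von Willebrand factor, had 32.8 CPM in BL6 library 2 and 187 CPM in BL6 library 3, from 8 and 30 counts. It had 28.5 and 36.2 CPM in DBA, from 1 count in each column. Vwf thus differed between the BL6 libraries, and the DBA counts are too few to place it. Plvap, the diaphragm protein of fenestrated endothelium, had 0 counts in all 4 columns, which allows up to 12.3 CPM in the deepest.

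Of 10 Notch pathway genes, 7 were highest in this type. Notch3, the Notch receptor of mural cells, had 377, 498, 684 and 362 CPM. In the list for Wnt signalling at the barrier, 7 of 15 were highest here. Lef1, a transcription factor of that pathway, had 340, 454, 399 and 326 CPM, against 103 CPM in NN-VLMC. Of 30 vascular transcription factors, 18 were highest here. Ebf1 had 1500, 2022, 2595 and 2315 CPM, and Epas1, a hypoxia-inducible factor, had 352, 336, 513 and 289 CPM. In the angiopoietin pathway 3 of 6 genes were highest here. Its receptor Tek had 164, 224, 114 and 72.4 CPM, and Ptprb, the phosphatase that acts on Tek, had 352, 404, 428 and 253 CPM. Of 19 basement membrane genes 9 were highest here, and of 16 genes for TGF-beta and BMP signalling 4 were. In the list for platelet-derived growth factor signalling, 1 of 5 genes was highest here. That list summed to 1110 CPM in BL6, below the 1273 CPM of NN-OPC.

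RNA of marker genes of other cell types was also counted in the columns. The ependymal list had 3 of 5 members highest here. It summed to 82.0, 56.0, 114 and 72.4 CPM, against 19.8 CPM in NN-VLMC, the next type in BL6. These sums were 20, 9, 4 and 2 counts, and each column outside BL6 library 2 had 4 of 5 members at 0. The blood cell list had 4 of 6 members highest here and summed to 824 CPM in BL6, against 609 CPM in NN-VLMC. The list for vascular leptomeningeal cells and fibroblasts had 0 of 17 members highest here and summed to 775, 1207, 599 and 760 CPM, against 10203 CPM in NN-VLMC. The 11 microglia genes summed to 516 and 523 CPM in BL6 and to 85.5 and 72.4 CPM in DBA, where 9 of 11 were at 0 in each library. The 14 neuronal genes summed to 4746, 5418, 2452 and 13602 CPM, so DBA library 3 held the most neuronal RNA of the 4. Of the other 21 types, the lowest had 1667 CPM in BL6 and the median was 23686 CPM. Hbb-bs, a beta-globin gene, had 410, 392, 257 and 72.4 CPM. Hba-a1 and Hba-a2, the alpha-globin genes of the blood cell list, were at or near 0 in all nuclei of the DBA libraries, so a summed blood cell level is not compared between strains. The 11 astrocyte genes summed to 2537, 3365, 2652 and 3690 CPM, which in BL6 was 25.9% of the 11386 CPM of NN-Astro. Not all members of that list are private to astrocytes, and NN-VLMC reached 8749 CPM for it in BL6. The 10 oligodendrocyte genes summed to 475, 473, 228 and 181 CPM, against 16597 CPM in NN-ODC. NN-VLMC had 749 CPM and NN-Endo-VLMC 615 CPM for that list in BL6. The summed counts do not show which nuclei carried the RNA of other cell types, and its part in the strain comparison was not tested.

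Across 15880 genes at 10 CPM or more in some type, the BL6 profile was most like that of NN-VLMC (Spearman rho 0.77), followed by Neuronal-Aldoa-Cst3 and NN-Astro (both 0.74) and NN-Endo-VLMC (0.73). Exc-Tfap2c was least like it (0.65). These correlations are across genes, which are not independent replicates, and all types share the same libraries.

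The share of this type among RNA nuclei was 1.04% in BL6 library 2 (exact 95% interval 0.83 to 1.29) and 1.38% in BL6 library 3 (1.06 to 1.77). It was 0.488% in DBA library 2 (0.267 to 0.818) and 0.143% in DBA library 3 (0.0656 to 0.272). The strains did not overlap, and the DBA mean was 0.893 percentage points lower. The exact two-sided permutation p = 0.333 is the smallest that 2 against 2 libraries allow. Among ATAC nuclei the type made up 0 of 3941 and 5 of 6943 in BL6. In DBA it made up 1 of 3694 and 1 of 4541 (exact permutation p = 1, DBA against BL6). Non-neuronal ATAC nuclei of every kind numbered 79 and 167 in BL6 and 67 and 135 in DBA. The type made up 0, 2.99, 1.49 and 0.741% of these. Of the non-neuronal RNA nuclei it made up 2.84, 2.60, 1.06 and 0.477% in the same order.

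The strain comparison asked which genes of these cells differ between DBA and BL6. Few did at this depth. Of 2328 genes tested with edgeR's quasi-likelihood test, 3 were higher and 4 lower in DBA at a Benjamini-Hochberg adjusted p below 0.05, or 0.301% of the genes tested (0.129% higher and 0.172% lower). No member of the endothelial, pericyte or smooth muscle lists was among them, with 22, 9 and 2 members tested. Over all genes tested, 203 had an unadjusted p below 0.05, and DESeq2 called 10. The median log2 change was -0.08 over the endothelial genes, 0.08 over the pericyte genes and 0.73 over the 2 smooth muscle genes tested, against -0.01 over all genes tested.

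Mitochondrial transcripts made up all 4 genes that were lower. mt-Co2 and mt-Co3, subunits of cytochrome c oxidase, had 2020 and 1928 CPM and 2561 and 2862 CPM in BL6 and 0 in both DBA columns. Taking the 3-count floor over the DBA group, they were at least 41.5-fold and 56.0-fold lower in DBA. mt-Atp6, an ATP synthase subunit, had 2426 and 3036 CPM in BL6 and 28.5 and 0 in DBA, where it had 1 count. mt-Co1 had 1754 and 2146 CPM in BL6 and 171 and 109 CPM in DBA, a log2 change of -3.82 (SE 0.52, edgeR adjusted p = 0.042). The same genes were low in all other nuclei of the DBA libraries, where mt-Co2 had 0.249 and 0.533 CPM against 583 and 823 CPM in BL6. There mt-Co3 had 2.37 and 3.36 CPM against 814 and 1219 CPM in BL6. The 4 lower genes were thus not particular to this type. Of these, mt-Co2, mt-Co3 and mt-Atp6 passed the count filter only through the BL6 columns, where they were high. Whether they were counted alike in the 2 strains was not tested.

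The 3 genes that were higher in DBA were Stab2, Sfi1 and A330015K06Rik. The filter keeps a gene that is high enough in the columns of either strain. All 3 entered the test only through the DBA columns, where they were high, since their BL6 levels were too low to pass. Stab2, a scavenger receptor, had 4.10 and 0 CPM in BL6 and 257 and 434 CPM in DBA, a log2 change of 6.53 (SE 0.85, edgeR adjusted p = 0.041). It had 1 count in BL6 against 21 in DBA, so the ratio of 136 has a counting interval of 21.8 to 5606. Sfi1, a centrosome protein, had 32.8 and 31.1 CPM in BL6 and 342 and 687 CPM in DBA. A330015K06Rik had 53.3 and 56.0 CPM in BL6 and 513 and 579 CPM in DBA, a log2 change of 3.23 (SE 0.43, edgeR adjusted p = 0.041). In the other nuclei of the same libraries, Stab2 had 4.51 and 6.09 CPM in BL6 and 199 and 223 CPM in DBA, and Sfi1 had 43.8 and 64.1 CPM in BL6 and 421 and 391 CPM in DBA. Both were thus higher in DBA there too. A330015K06Rik differed from them, since its strains overlapped in the other nuclei, at 411 and 321 CPM in BL6 and 436 and 392 CPM in DBA. The strain difference of these 7 genes did not pass the test of being unlike that in other nuclei (smallest edgeR adjusted p = 0.171, for A330015K06Rik, with a difference of 2.69 between the log2 changes). The calls of Stab2, Sfi1 and A330015K06Rik rest on both BL6 libraries. Without BL6 library 2 their edgeR adjusted p were 0.489, 0.0856 and 0.271, and without BL6 library 3 they were 0.543, 0.0538 and 0.153. The log2 changes stayed positive, from 3.05 (A330015K06Rik) to 7.58 (Stab2). Of the mitochondrial genes, mt-Co1 was not called without BL6 library 2 (edgeR adjusted p = 0.0564).

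The list members with the smallest p were not called. Rgs5 was higher in both DBA libraries, with a log2 change of 1.12 (SE 0.53, edgeR adjusted p = 0.598). Tek was lower in both, by -1.06 (SE 0.56, edgeR adjusted p = 0.645), and Mecom by -0.84 (SE 0.47, edgeR adjusted p = 0.666). Pde3a, a phosphodiesterase of vessel tone, had 180 and 149 CPM in BL6 and 1625 and 217 CPM in DBA (edgeR adjusted p = 0.424). Of the 2328 genes tested, 39.9% had strains that did not overlap. Smooth muscle markers were high in DBA library 2, as given above for Myh11 and Acta2, and their part in the Pde3a value was not tested.

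A second fit asked whether the strain difference of this type was unlike that in the other 21 types of the same libraries. Of 19111 genes tested, 5 were called, or 0.0262%, all more negative in this type. The median difference over all genes tested was itself negative, at -0.66. Htr2c, a serotonin receptor, had 3184 and 124 CPM in BL6 and 28.5 and 0 in DBA, and Trpm3, an ion channel, had 5053, 535, 28.5 and 181 CPM. Wdr17 had 2742, 722, 114 and 36.2 CPM. These 3 genes were in the choroid plexus list, which was chosen after its values were seen, and were highest in BL6 library 2. Nxpe2 did not follow that library, with 352 and 348 CPM in BL6 against 0 and 36.2 CPM in DBA, and 40.7 to 48.9 CPM in the other nuclei of all 4 libraries. Fap, which encodes fibroblast activation protein, had 115, 106, 85.5 and 0 CPM here. In the other nuclei it was higher in DBA (13.1 and 8.83 CPM) than in BL6 (1.67 and 1.57 CPM). With total-count scaling, Nxpe2, Fap and Trpm3 were not called (edgeR adjusted p = 0.124, 0.124 and 0.0931), while Htr2c and Wdr17 were. With RLE scaling Fap was not called (edgeR adjusted p = 0.0599). Without BL6 library 2, 0 of the 5 were called (edgeR, 181 genes at an unadjusted p below 0.05). Without BL6 library 3, 0 were called as well (270 genes).

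Tek, the angiopoietin receptor, did not pass this test. It had 37.0 and 28.7 CPM in the other nuclei of BL6 and 0.966 and 0.573 CPM in those of DBA, against 164 and 224 CPM in the BL6 and 114 and 72.4 CPM in the DBA vessel cells. The difference between the 2 strain changes was 3.897 on the log2 scale (SE 1.07, edgeR adjusted p = 0.408).

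The ATAC columns did not show a vascular identity at their depth. They held 81336 counts from 5 nuclei in BL6 library 3, 25772 from 1 nucleus in DBA library 2 and 4490 from 1 nucleus in DBA library 3, and BL6 library 2 had no column. No strain test was made, because every column had fewer than 10 nuclei. Of 215 peaks with 10 or more counts in BL6 library 3, 0 were at least 4 times higher than in every other type. That 0 says little about identity, because the peaks at Cldn5, Flt1 and Rgs5 had at most 1 count in that library. The other types also include small ones, such as NN-VLMC with 3 ATAC nuclei. The peak over the Cldn5 promoter shown above (chr16:18776768-18777913) had 0 counts in all 3 columns, as did both peaks at the ends of Rgs5. The peak over the Flt1 promoter (chr5:147724955-147726469) had 1 count, in BL6 library 3. A count of 0 in BL6 library 3 allows up to 36.9 CPM, above the 11.5 CPM that NN-Astro had at the Cldn5 peak, so openness at single promoters was not detectable at this depth.

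Summing over lists gave more counts. Peaks within 2 kb of the ends of the endothelial genes, of which 27 of 31 had one, held 15 counts in BL6 library 3, or 184 CPM (exact 95% interval 103 to 304), against a median of 220 CPM over the other types. The pericyte genes gave 73.8 CPM (27.1 to 161) against 99.7 CPM, and the smooth muscle genes 98.4 CPM (42.5 to 194) against 138 CPM. All 3 vascular lists were below the median of the other types, within their counting intervals. The microglia genes gave 14 counts, or 172 CPM (94.1 to 289), against a median of 51.5 CPM and 206 CPM in NN-MGC, the microglia type. These 14 counts were all in BL6 library 3, while the list had 0 counts in DBA library 2 and 1 in DBA library 3. The oligodendrocyte precursor genes also gave 14 counts, or 172 CPM (94.1 to 289), against a median of 122 CPM. The oligodendrocyte genes gave 86.1 CPM (34.6 to 177) against 56.3 CPM. These 3 glial lists were above the median of the other types, but for the precursor and oligodendrocyte lists the counting interval held the median. The astrocyte genes lay below, at 86.1 CPM (34.6 to 177) against a median of 111 CPM. So did the neuronal genes, at 430 CPM (300 to 598) against 546 CPM. In the same measure NN-Astro reached 527 CPM at astrocyte genes and NN-ODC 271 CPM at oligodendrocyte genes, so the sums did separate types with more nuclei. The ATAC nuclei are therefore called here by the authors' name only.

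**Figure D5:**
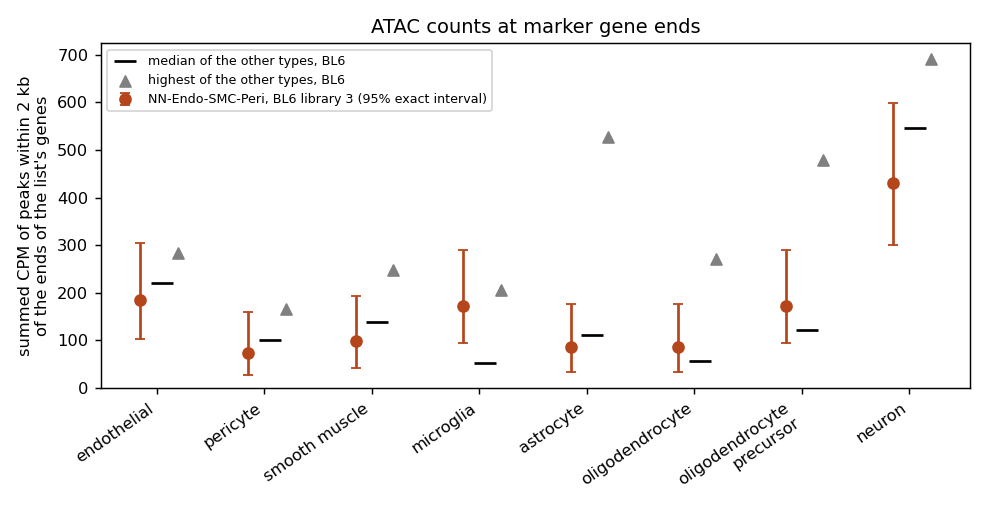
Summed ATAC level, in CPM, of peaks within 2 kb of the ends of the genes of 8 cell type lists. Red points are the 5 NN-Endo-SMC-Peri nuclei of BL6 library 3 with exact 95% intervals, dashes the median and triangles the highest of the other types. The vascular, astrocyte and neuron lists lie below the median. The microglia list lies at 172 CPM against a median of 51.5 CPM. The oligodendrocyte and oligodendrocyte precursor lists also lie above their medians. Only the microglia interval leaves out the median.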

How the data were processed

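Single-nucleus RNA and ATAC libraries of 2 strains were analysed. The other 16 samples of the series, methylation libraries, were not analysed here. The authors deposited counts per gene and per peak, as 1 sum for each type in each library, and counts of nuclei. Per the submitters' processing notes, RNA was processed with Cell Ranger 6.0.2 and Seurat 4.0.5, ATAC with Cell Ranger ATAC 2.0.0, and the build was mm10. Filters on nuclei, doublet removal, strand and peak calling are not given in the sources used here. Cell type names are the authors' own.

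CPM, shares and exact intervals were computed with Python 3.11.15 and scipy 1.17.1. Strain differences (DBA minus BL6) used edgeR 4.0.16 (robust quasi-likelihood, TMM, filterByExpr with a minimum count of 10, Benjamini-Hochberg) on 22155 genes with 10 or more counts in each strain, since some genes are counted under other names in the other strain. The interaction fit had library as a block. Fits were also run on simulated data, in which every gene had the same spread setting and the libraries of a strain shared their means. The real columns differ more, as Ttr did between the BL6 libraries. The simulation therefore does not show how the fits perform on these columns. P-values within the type measure the spread between pools of about 2 animals, which includes the sampling of few nuclei. The interaction fit uses a single spread per gene for this type and the other nuclei together. Its p-values therefore do not measure the spread of this type alone. Alternatives used DESeq2 1.42.0, other scalings and filters, and libraries left out.

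Members and lists were chosen with earlier results of these data known, and the choroid plexus list after its values were seen. Named genes were the 4 highest members of each vascular list, the 15 largest ratios to the next type (provisional symbols passed over), up to 4 members of the other lists, all called genes, and the list members with the smallest p. Other named members illustrate a list and were chosen after their values were seen.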

Additional observations from a re-analysis of the deposited data

Results flagged for a closer look

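For 5 genes the strain difference in NN-Endo-SMC-Peri was unlike that in the other nuclei of the same libraries (edgeR quasi-likelihood interaction, 0.0262% of genes tested). The difference of the log2 changes was -6.22 for Htr2c, -4.80 for Wdr17, -4.72 for Nxpe2, -4.50 for Fap and -4.49 for Trpm3. Htr2c, Wdr17 and Trpm3 were highest in BL6 library 2, the library that held choroid plexus RNA. Nxpe2 had nearly equal levels in both BL6 libraries. Fap had 3 counts in DBA against 45 in BL6, a ratio of 2.32 with a counting interval of 0.746 to 11.7 in the type itself. DESeq2 called 0 of the 5 (264 genes at an unadjusted p below 0.05). With total-count scaling, only Htr2c and Wdr17 of the 5 stayed called.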

How the results depend on the processing

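The 9 and 14 DBA nuclei limit every strain result, and the 7 ATAC nuclei allow no strain test, so its alternatives were not run. Strain calls in the type (7, with 3 higher) were 7 under RLE or total-count scaling and 10 with DESeq2 (3 higher), 33 with no filter beyond 1 count (11 higher), 20 with every gene of the table (14 higher), and 3 to 68 with single libraries left out: 3 without BL6 library 2, 10 without BL6 library 3 (both 0 higher), 66 without DBA library 2 and 68 without DBA library 3. The lone sample of a strain is then assumed to vary like the other strain. With the library number as a replicate block, 0 were called (edgeR, 164 genes at an unadjusted p below 0.05). Same-numbered libraries deviated together with r = 0.029 across genes, and the labels do not say that numbers pair libraries. Interaction calls (5, with 0 higher) were 5 under RLE (1 higher), with no filter and with every gene, 3 with total counts (1 higher), 0 with DESeq2, and 0 to 6 with single libraries left out. The median interaction moved from -0.66 with TMM to -0.30 with total counts. The genes at least 4 times above every other type (90) numbered 106 with all libraries summed, 57 at 8 times, 42 at 50 counts, 211 without NN-Endo-VLMC and NN-VLMC among the other types, and 48 to 65 with 1 BL6 library, the former without BL6 library 2. The last 2 were added after seeing the data. The ATAC share difference of -0.0115 percentage points ranged from -0.0475 to 0.0245 with single libraries left out, the latter without BL6 library 3. The RNA share and mural share differences kept their sign under all alternatives run, but not their size. The former (-0.893 percentage points) was -1.95 as a share of non-neuronal nuclei, and the ATAC share difference -0.380. The latter (3.16 percentage points) was 5.60 without the most abundant member of each list and 7.02 with the column of 9 nuclei. The cause of these changes was not tested.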
